A study of Caenorhabditis elegans with 2 samples.

Results

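The regions described here are the distal intergenic summits of ELT-2 binding on the autosomes of Caenorhabditis elegans, meaning the points of highest signal of binding peaks that lie between protein-coding genes and away from their promoters. The list of thresholded peaks on genome build ce11 held 4098 peaks. Of these, 834 were on the X chromosome and 22 on the mitochondrial genome, which left 3242 autosomal peaks. A summit was kept when it lay outside every protein-coding gene body and outside every window from 1000 bp upstream to 200 bp downstream of a protein-coding transcript's 5′ end. The promoter windows took 1934 autosomal summits and the remaining gene bodies took 600. A further 56 summits lay within 200 bp of a tRNA, snoRNA or snRNA gene and were dropped. The 652 summits left made up 15.9% of all thresholded peaks and 20.1% of the autosomal ones. Within the thresholded list the choice used position alone, so neither the peak signal nor the sequence entered that step. Replicate agreement had entered the authors' thresholding before it. In this territory the thresholded summits had signals of 67.65 and above, and the pooled entries left out had 67.56 or less.

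Binding of the transcription factor ELT-2 was mapped by ChIP-seq, in which DNA bound to a precipitated protein is sequenced, in hermaphrodite late embryos, in 1 group of 2 biological replicates. The strain OP56, of genotype unc-119(ed3) III; wgIs56, carries an integrated transgene that makes ELT-2 with a GFP and FLAG tag at its C terminus, and per the sample descriptions an antibody to GFP was used for the precipitation, although another label gives the antibody as elt-2. Cultures had been synchronized by bleaching to release eggs, and the embryos were taken 4 hours later. Material came from whole embryos, so the cells that gave the peaks are not told apart, and both replicates carry the transgene and the unc-119 mutation. With 1 group and no control libraries among the files used, there was no comparison of conditions.

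ELT-2 is a zinc finger protein of the GATA family and the leading GATA factor of intestinal cells once they have been specified. GATA factors recognise short sequences with the core GATA, and TGATAA is the form best known for ELT-2. Worm genes are compact and much of their regulation lies close upstream of the gene, so sequence far from any promoter that a factor binds is of interest as possible enhancer sequence. Binding by itself does not show that a region acts on a gene.

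The windows of 101 bases centred on the 7 strongest of these summits on chromosomes II to V, on a summit near F54F12.1 picked for its number of sites, and on the summits near ges-1 and ifb-2, show what the sequence at the bound points looks like. Each is the plus strand of build ce11 (WBcel235), 5′ to 3′, with every TGATAA or its reverse complement TTATCA in capitals.
Summit near Y37A1A.2, chrIV:13919367-13919467: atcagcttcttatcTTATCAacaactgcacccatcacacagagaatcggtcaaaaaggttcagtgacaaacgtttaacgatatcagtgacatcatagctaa
Summit near zig-13, chrIII:154321-154421: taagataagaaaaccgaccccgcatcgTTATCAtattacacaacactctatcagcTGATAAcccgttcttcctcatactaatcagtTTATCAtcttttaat
Summit near C08E8.3, chrV:18346195-18346295: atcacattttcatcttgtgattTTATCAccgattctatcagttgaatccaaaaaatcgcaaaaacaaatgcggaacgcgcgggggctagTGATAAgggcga
Summit near shc-2, chrII:4966725-4966825: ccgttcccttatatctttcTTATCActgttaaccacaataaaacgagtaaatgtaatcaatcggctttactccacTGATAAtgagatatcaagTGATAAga
Summit near C17G10.7, chrII:5605798-5605898: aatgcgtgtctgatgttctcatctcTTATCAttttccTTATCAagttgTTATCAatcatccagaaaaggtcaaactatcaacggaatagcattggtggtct
Summit near C31C9.6, chrII:13665369-13665469: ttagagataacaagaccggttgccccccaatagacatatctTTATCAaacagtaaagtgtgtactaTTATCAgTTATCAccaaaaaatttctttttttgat
Summit near F54F12.1, chrIII:13059503-13059603: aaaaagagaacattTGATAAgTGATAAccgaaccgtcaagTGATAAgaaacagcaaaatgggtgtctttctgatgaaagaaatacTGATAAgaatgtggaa
Summit near ifb-2, chrII:5748541-5748641: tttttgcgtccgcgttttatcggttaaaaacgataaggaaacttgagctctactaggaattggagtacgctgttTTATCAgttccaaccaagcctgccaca
Summit near ges-1, chrV:1433198-1433298: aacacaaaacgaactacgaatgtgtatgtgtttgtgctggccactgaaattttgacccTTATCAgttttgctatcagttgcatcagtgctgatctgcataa
Summit in the noncoding gene F36H1.17, chrIV:11026131-11026231: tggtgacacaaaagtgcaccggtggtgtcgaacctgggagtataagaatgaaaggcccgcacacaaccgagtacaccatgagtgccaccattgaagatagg
The window near F54F12.1 holds 4 sites, those near zig-13, shc-2, C17G10.7 and C31C9.6 hold 3 each, and that near Y37A1A.2, the strongest of all, holds 1. The window in F36H1.17 holds none, although it was the strongest distal summit without a site.

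TGATAA marked most of the distal summits and was centred on them. At least 1 TGATAA lay within 50 bp of 375 of the 652 summits, which is 57.5% (95% interval 53.6 to 61.3%, exact Clopper-Pearson, counting error only). Windows of the same width 500 bp to the left of each summit held the site in 66 cases, or 10.1%. The site was in the summit window alone for 338 members and in the flanking window alone for 29 (two-sided exact sign test, p = 6.27e-68). Over 187462 windows tiling the whole distal intergenic territory, 8.99% held TGATAA, close to the share in the flanks. For a control word, AATAGT, the same letters read backwards, the shares were 9.05% at summits and 7.52% in flanks (p = 0.368 by the exact sign test). The longer site TGATAAG, which carries the G that follows the core in many GATA sites, was at 34.7% of summits and 1.23% of flanks.

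**Figure D1:**
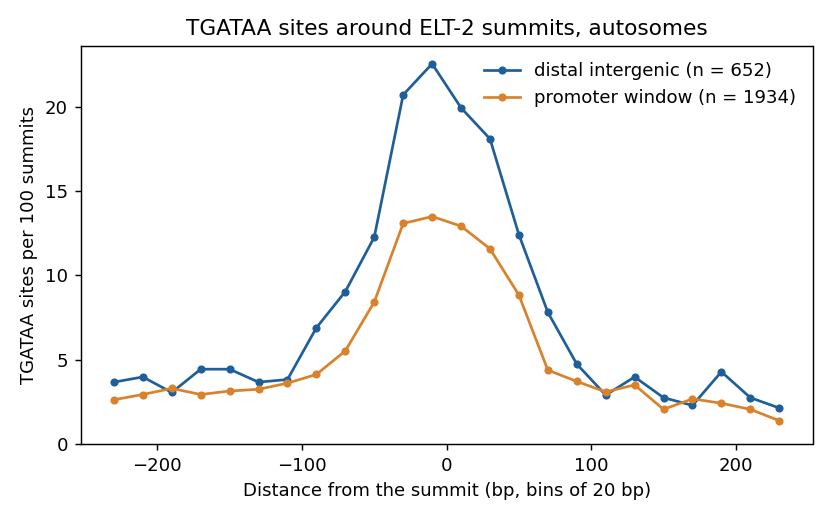
TGATAA sites per 100 summits (vertical axis) in bins of 20 bp by distance from the summit in bp (horizontal axis), for the 652 distal intergenic and 1934 promoter-window summits on the autosomes. The distal curve reaches 22.5 sites per 100 summits just left of the summit and lies above the promoter curve, which peaks at 13.5, throughout the central bins.

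Among the 375 members with a site, the nearest site's centre lay a median of 16.5 bp from the summit, and 67.5% were within 25 bp. The plot of sites by distance shows the counts falling steeply up to about 100 bp on either side. In the bins from 100 to 120 bp there were 3.83 sites per 100 summits on the left and 2.91 on the right. From there to 240 bp the bins held 2.15 to 4.45. The plot ends at 240 bp, short of the flanking windows at 500 bp. The 652 windows held 601 TGATAA sites in all, counting both strands and letting neighbours overlap. These sites differed in their neighbouring bases from the 19694 TGATAA in the territory. The base after the site was G at 44.9% of summit sites and at 17.2% of territory sites. The base before it was C at 35.8% against 19.2%, and the longer word ACTGATAA took 21.6% of summit sites (18.4 to 25.1%) against 7.65% in the territory. Of the territory's 19694 sites, 588 (2.99%) lay within 50 bp of a distal summit, so most TGATAA in this territory had no thresholded summit beside it.

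Stronger summits carried the site more often and carried more copies of it. The authors' peak signal of the 652 ran from 67.6 to 980, with quartiles of 80.4, 104 and 154. When the members were ordered by signal and cut into 5 groups of like size, TGATAA was within 50 bp of 86.3% (79.2 to 91.6%) of the 131 strongest and of 35.9% (27.7 to 44.7%) of the 131 weakest, with 63.1, 60.8 and 41.5% in the groups between. Members with no site numbered 277 and had a median signal of 88.7. The median was 114 for the 196 members with 1 site, 132 for the 135 with 2, and 179 for the 44 with 3 or more. The ranges overlapped widely: a member without a site reached 443, and a member with 3 or more was as low as 68.1. In the flanking windows, 6 held 2 sites and 0 held 3 or more.

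**Figure D2:**
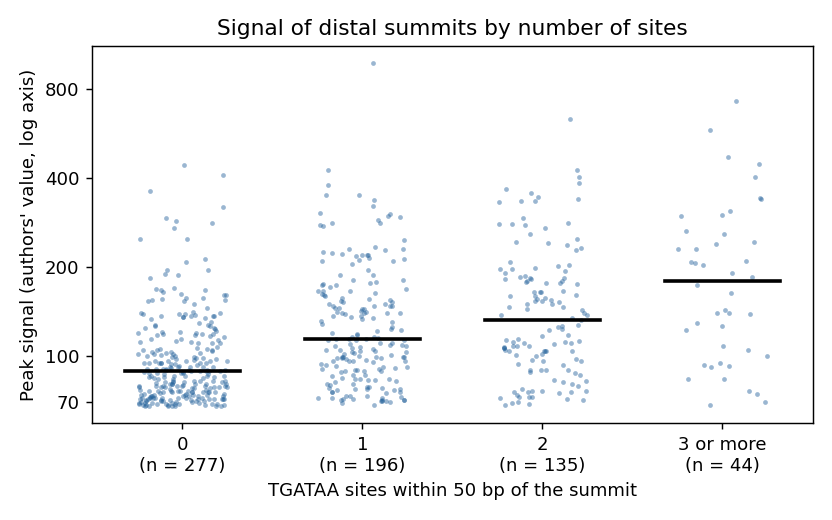
Peak signal of each distal summit (authors' values, log axis) by the number of TGATAA within 50 bp, with a point per summit and a bar at each median. The medians are 88.7, 114, 132 and 179 from 0 sites to 3 or more, and the 4 clouds overlap.

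The 135 members with exactly 2 sites showed no fixed spacing. The sites were on the same strand in 82, pointed apart in 29 and faced each other in 24. The distance between them ran from 6 to 84 bp with a median of 26 bp, and 45 pairs lay within 20 bp. Sites on the same strand had a median spacing of 23 bp, against 34 and 32 bp for the other arrangements.

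Distal summits held TGATAA more often than promoter summits did. The share was 38.0% (35.8 to 40.2%) at the 1934 promoter summits, a difference of 19.5 percentage points (95% interval 15.1 to 23.8, Newcombe's method). It was 52.8% at the 600 summits in gene bodies, where the difference of 4.68 points had an interval of -0.828 to 10.2 and so included 0. At the 56 summits near small RNA genes it was 16.1%. Promoter summits were not uniform: at the 38 lying 901 to 1000 bp upstream it was 57.9%, close to the distal share. In signal the 3 main classes were close, with medians of 104 for distal, 107 for promoter and 114 for gene body summits. Comparing them within the same signal ranges, a comparison added after the data had been seen, left the order of distal and promoter summits in place: in the strongest range 86.3% of distal, 49.3% (44.4 to 54.2%) of promoter and 59.6% (51.2 to 67.6%) of gene body summits held the site. In the weakest range the shares were 35.9, 29.2 and 44.4%, and their intervals overlapped.

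**Figure D3:**
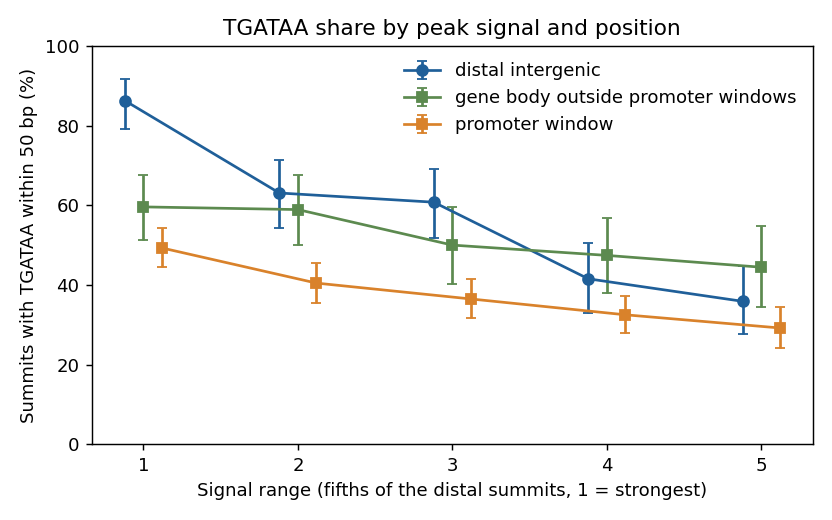
Share of summits with TGATAA within 50 bp (vertical axis, %) in 5 signal ranges, each holding about the same number of distal summits (horizontal axis, 1 the strongest), for distal intergenic, gene body and promoter-window summits, with exact 95% binomial intervals. The distal share falls from 86.3% to 35.9% and is farthest above the others in the strongest range. In ranges 4 and 5 it lies below the gene body share, at 41.5 against 47.4% and 35.9 against 44.4%, with overlapping intervals.

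All words of 6 letters were then compared in the same way, summit against flank, so that TGATAA could be read against the whole table. A word and its reverse complement counted as 1, which gives 2080 words. At an adjusted p under 0.05 (exact sign test, Benjamini-Hochberg over all words) 293 words differed, or 14.1%, with 162 (7.79%) more frequent at summits and 131 less frequent. Among the 48 words that contain GATA or its reverse complement TATC, 21 were higher and 1 was lower. GATAAG, which shares 5 letters with TGATAA and overlaps it where a T comes before, was at 43.7% of summits and 3.07% of flanks (exact sign test, adjusted p = 1.04e-68). GATAAC was at 26.5% against 1.69% and had the highest ratio of all called words, 15.7. CTGATA (31.7 against 4.14%) and ATAAGG (12 against 1.53%) were also among the 10 called words of highest ratio, and these words overlap one another in longer sites. In the tiled territory, 3.53% of windows held GATAAG and 3.24% held GATAAC.

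The base before GATAA differed between summits and flanks. AGATAA was at 16.6% of summits and 5.06% of flanks (exact sign test, adjusted p = 1.50e-09), and CGATAA at 9.82% against 2.45% (adjusted p = 1.94e-06). The shares of territory windows with these words were 6.15 and 3.55%. GGATAA went the other way, at 1.38% against 3.22%, and was not called (exact sign test, adjusted p = 0.150). Of the remaining words of highest ratio, GGTCAC was at 3.68% of summits and 0.460% of flanks. The others were made mostly or only of G and C, such as CCGCCG at 3.53% of summits and 0.307% of flanks, and none was at more than 4.91% of summits. Base composition moved with them: summit windows were 39.6% G and C and flanks 33.5%, and words without GATA that were higher held 3.25 G or C on average, against 1.34 in the words that were lower. The part of base composition in these calls was not tested.

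Words with repeated AG and AC were more frequent than in the flanks at the 277 members without TGATAA. This comparison was added after the data had been seen, and 79 words (3.8%) were higher at these summits than in their flanks. AGAGAG was at 27.4% of them and in 3.61% of their flanks (exact sign test, adjusted p = 6.66e-11). Its shifted form GAGAGA, which overlaps it, was at 30.7% against 6.50%. CACACA was at 18.1% against 4.33%. GATAAG, here never preceded by T, was at 13.4% against 1.08% (exact sign test, adjusted p = 4.05e-06). AGAGAG was at 10.1% (7.27 to 13.6%) of the members that held TGATAA, below the 22.3 to 33.1% interval of those without. For CACACA that share was 11.2% (8.19 to 14.8%), which overlapped the 13.7 to 23.1% interval of those without. Over all members CACACA was at 14.1%, against 12.1% of promoter and 13% of gene body summits. Over the tiled territory AGAGAG was in 4.96% of windows and CACACA in 4.64%. AGAGAG was also present at 12.5% of promoter summits and 13.2% of gene body summits. Members without TGATAA were also richer in G and C, with a median of 43.6% against 36.6% for the others. Of these 277, 85 had a TGATAA between 50 and 100 bp from the summit.

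The strongest distal summits lay beside genes of varied function. The strongest of all, at IV:13919417, had a signal of 980 in the pooled list, 533 in replicate 1 and 450 in replicate 2, and lay 6388 bp upstream of Y37A1A.2 between divergent genes. The summit at III:154371 had 729 in the pool, 407 in replicate 1 and 317 in replicate 2, and lay between sqst-5 and zig-13, which encodes a secreted immunoglobulin domain protein. That at V:18346245 had 632, 319 and 313 and lay 3884 bp upstream of C08E8.3. All 3 kept similar ranks in both replicates, between 6 and 25. Next came II:4966775, with 581, 303 and 274, which lay 2388 bp upstream of shc-2, a gene for a Shc-type signalling adaptor. The next summits by signal had 3 sites each, and lay at II:5605848 near C17G10.7 with a signal of 472 and at II:13665419 near C31C9.6 with 447.

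Of the 20 strongest distal summits on chromosomes II to V, 17 had TGATAA within 50 bp. One of the exceptions was the summit in F36H1.17, a noncoding RNA gene of 89 bp, at IV:11026181, between alh-3 and hrg-5. Its window was 51.5% G and C, and its signal was 443 in the pool, 245 in replicate 1 and 201 in replicate 2. The other two exceptions, at V:8661835 (signal 411) and II:6327535 (361), each had 2 TGATAA between 50 and 100 bp away. The second of these lay between the converging genes sma-6, a receptor of the TGF-beta family pathway that sets body size, and set-4, a histone methyltransferase. The same interval held another of the 20 strongest, at II:6328875, with a signal of 349 and 1 site. The remaining ones lay near xdh-1, xanthine dehydrogenase (426), T23E1.1 (403), M01E10.3 (403), asp-13, an aspartyl protease gene (386), R02D5.1 (355), W06H8.6 (351), F26G1.5 (344), znf-782 (343), Y45G5AM.5 (340) and acs-20, a fatty acyl-CoA synthetase gene (339, with 4 sites).

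Distal summits were spread over all 5 autosomes at unequal density. Chromosome II held 139, III 125, IV 134 and V 142, and the remaining autosome held the rest. The territory that meets the rule covered 19.3 Mb, or 23.4% of autosomal sequence, which gives 33.8 summits per Mb (31.2 to 36.5, exact Poisson interval). Promoter windows had 86.2 per Mb and gene bodies 14.7. Density was highest on III at 44.9 per Mb (37.4 to 53.5) and lowest on IV at 26.8 (22.5 to 31.8). The middle of the chromosomes had 41.1 per Mb (37 to 45.5) against 27.5 (24.4 to 30.9) in the outer 25% at each end, while the share with TGATAA was 57.6 and 57.4%.

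Within this territory, summits thinned out with distance from genes' starts. The distance to the nearest protein-coding 5′ end ran from 270 to 16551 bp, with a median of 2254 bp. Of the members, 483 lay on the upstream side of that gene and 169 on its downstream side. Density was 45.3 per Mb (38.4 to 53.1) between 1000 and 1500 bp, 34.3 between 2000 and 3000 bp, 23.3 (18.3 to 29.3) between 5000 and 10000 bp and 15.8 (7.88 to 28.2) beyond. The share with TGATAA showed no such trend, at 56.9, 59.7, 61.6 and 54.5% in those 4 ranges. Summits just outside the edge of the promoter window resembled those just inside. Of those outside, 38 lay 1001 to 1100 bp upstream, with a median signal of 97.4 and TGATAA at 60.5%. Inside, 38 lay 901 to 1000 bp upstream, with a median of 97.6 and TGATAA at 57.9%.

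**Figure D4:**
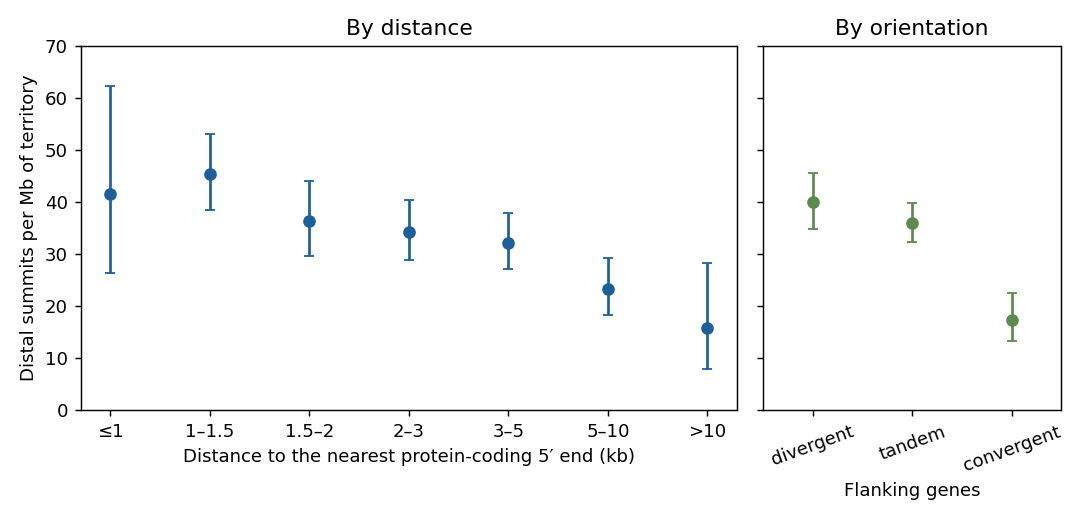
Distal summits per Mb of territory (vertical axis) by distance to the nearest protein-coding 5′ end in kb (left) and by the orientation of the flanking genes (right), with exact 95% Poisson intervals. Density falls from 45.3 per Mb at 1 to 1.5 kb to 15.8 beyond 10 kb, and is 17.4 per Mb between convergent genes.

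The orientation of the flanking genes went with density too. Intervals between divergent genes, where both genes start towards the summit, held 222 members at 40.0 per Mb (34.9 to 45.6). Tandem intervals held 371 at 35.9 per Mb (32.4 to 39.8). Convergent intervals, where both genes end towards the summit, held 59 at 17.4 per Mb (13.2 to 22.4), below both. The shares with TGATAA were 57.2, 59.0 and 49.2%, and their intervals overlapped. Of 7271 intergenic intervals with such territory, 511 (7.03%) held a distal summit: 408 held 1, 73 held 2, 24 held 3, 4 held 4 and 2 held 5.

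Signals were mixed among the members farthest from any protein-coding 5′ end and among those packed most tightly. The 11 members beyond 10000 bp had a median signal of 139, against 104 for all members. The farthest, at III:12528261, was 16551 bp from the 5′ end of aakg-1, a gamma subunit gene of AMP-activated kinase, with a signal of 80.4 and no TGATAA. The next, at IV:15726420, was 15444 bp from Y105C5A.15 with a signal of 104 and 2 sites. The third, IV:14594486, was 13447 bp upstream of irld-18, with a signal of 305. Of the other two, II:6822687 had a signal of 95.9 and II:7273740 had 153. The summit at II:6822687 shared its interval, between the synaptotagmin gene snt-1 and the chromatin gene egl-27, with 4 others.

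The tightest group of 3 was at II:4966775, II:4966976 and II:4967857 between ulp-2, a SUMO protease gene, and shc-2, over 1082 bp, with signals of 581, 69.4 and 281. The next group overlapped it, taking in II:4968062 with 118. The tightest group elsewhere was at IV:14033066, IV:14033986 and IV:14034193, over 1127 bp, where signals were 81.5, 319 and 110 and none had TGATAA. Some of these are neighbouring summits of overlapping peaks. In all, 61 members overlapped another thresholded peak, with summits 199 to 259 bp apart, and the 33 that overlapped a stronger peak held TGATAA in 24.2% (11.1 to 42.3%), against 59.3% of the other 619. Overlapping peaks share reads, so such pairs are not separate measurements.

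A different kind of pair lay in the pud locus on chromosome V, beside genes named for proteins that are up-regulated in mutants of the insulin receptor gene. The summits at V:2324466 and V:2327336 lay 2870 bp apart beside pud-3 and pud-4, with signals of 278 and 277. Their windows are shown because they match in opposite orientation: when the second was reversed and complemented, 95.8% of 95 aligned bases were the same.
Summit near pud-3, chrV:2324416-2324516: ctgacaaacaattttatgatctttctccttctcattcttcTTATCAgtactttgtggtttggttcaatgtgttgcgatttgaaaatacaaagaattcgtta
Summit near pud-4, chrV:2327286-2327386: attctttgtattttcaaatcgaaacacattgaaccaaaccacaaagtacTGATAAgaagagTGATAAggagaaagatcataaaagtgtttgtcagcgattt
Among 154 pairs of members within 5000 bp of each other, this was the only one over 60% identity in ungapped alignment, where the median was 38.8%. Reads from near-identical copies can be assigned to either, so the 2 values may not be independent.

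The intestinal genes nearest to distal summits came from 6 of the lists, for the lumen, hydrolases, metal homeostasis, lipid metabolism, innate immunity and stress regulation, and the lists' densities had overlapping intervals. Over all autosomal protein-coding genes, 548 of 17242 (3.18%) had the 5′ end nearest to at least 1 member. The lists of intestinal genes were drawn up with earlier results of these data known. In them 16 of 105 genes, or 15.2% (8.97 to 23.6%), were nearest to a member, with 22 members. Of these 22, 15 had TGATAA (68.2%, 45.1 to 86.1%), an interval that includes the 57.5% over all members. Set against the territory nearest to the listed genes, the 22 gave 163 members per Mb (102 to 247), compared with 33.8 over all genes. That interval may be too narrow, since it counts overlapping peaks at nsy-1 and pha-4 as separate members. Lists for muscle, pharynx, epidermis, neurons and germline held 3 of 86 genes, with 5 members, or 43.8 per Mb (14.2 to 102). The gene pha-4 is in lists of both kinds. The intestinal count fell to 8 with a wider promoter window (2000 bp upstream, 500 bp downstream) and to 9 with only the stronger peaks of the list kept.

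Genes of the intestinal lumen and brush border had 4 of 11 with a distal summit. The strongest lay at II:5748591, 1597 bp upstream of ifb-2, an intermediate filament protein of the terminal web beneath the lumen, with 1 TGATAA and signals of 287 in the pool, 149 in replicate 1 and 135 in replicate 2. The others were upstream of nhx-2, an apical sodium-proton exchanger (145), eps-8, a microvillar actin-binding protein (120), and let-413, a polarity protein of the Scribble family (74.4). These 3 had no TGATAA within 50 bp, though the summits near nhx-2 and eps-8 each had 2 within 100 bp. The endoderm GATA genes themselves had 0 of 4, with little territory of this kind beside them (0.00324 Mb).

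Among the hydrolase genes, 3 of 25 had a distal summit, all with TGATAA. The gut esterase gene ges-1, whose upstream GATA sites served to isolate ELT-2, had its summit at V:1433248, in the peak chrV:1433020-1433475, 1111 bp upstream. Its signal was 159 in the pool, 84.7 in replicate 1 and 82.1 in replicate 2. This summit lies only just beyond the promoter window, and a rule of 2000 bp would have left it out. The aspartyl protease gene asp-1 had a summit 2685 bp upstream (98.8) and the lysozyme gene lys-2 had one on its downstream side, 1201 bp from its 5′ end (76.0).

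In lipid metabolism, 3 of 25 genes had 5 members. The omega-3 fatty acid desaturase gene fat-1 had 1 upstream at 1291 bp with 218 and 1 on its downstream side with 166, each with TGATAA. The desaturase gene fat-5 had 1 at 1419 bp upstream (78.2). The gene sbp-1, the worm SREBP, had 2, at 6392 bp (104, 2 sites) and 5035 bp (73.7) upstream. The latter had no TGATAA within 50 bp and 1 within 100 bp. The kinase gene nsy-1, which acts in innate immunity ahead of the p38 pathway, was the only one of 17 immunity genes, with 3 members at 274, 157 and 150. The members with 274 and 150 lay 199 bp apart and matched the same entry in each replicate list. Among the 12 metal homeostasis genes 1 had members, 2 in number, on the remaining autosome.

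Of 16 stress and metabolic regulators, 5 had a member. The FoxA gene pha-4, which specifies the pharynx and also acts in the gut, had summits 1815 bp upstream (147, 2 sites) and 1576 bp upstream (82.5, no TGATAA) that matched the same replicate entries. The Mondo-type factor gene mml-1 had 1 just past the edge of the window, at 1014 bp (126, 3 sites), and pqm-1, a zinc finger factor gene, had 1 at 1406 bp (105). The hypoxia factor gene hif-1 had 1 at 2050 bp without TGATAA (84.8), which ranked 1970 in replicate 2 and 5570 in replicate 1. The gene sbp-1, described above, was the last of the 5.

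Among larger families, whose densities were not tested against one another and had overlapping intervals, members were counted in the same way. Chemoreceptor genes, most of which act in sensory neurons, had 12 of 1265 (0.949%) nearest to a member, or 10.1 per Mb (5.40 to 17.3), below the 33.8 over all genes. C-type lectins had 1 of 234 (0.427%) and collagens 1 of 129 (0.775%), against 3.18% of all autosomal protein-coding genes. By density C-type lectins had 5.86 per Mb (0.148 to 32.6). Collagens had 8.45 per Mb (0.214 to 47.1), an interval that includes 33.8. Nuclear hormone receptors had 10 of 246, at 29.8 per Mb (14.9 to 53.3), with nhr-41 the first by signal. Homeobox factors had 4 of 60, among them the Hox genes lin-39 and nob-1, at 40.9 per Mb (16.4 to 84.2). Insulin-like peptides had 3 of 36 (8.33%), at 61.3 per Mb (16.7 to 157), which includes 33.8. Muscle had 0 of 14 and germline 0 of 22. Their density intervals, 0 to 194 and 0 to 353 per Mb, included the 33.8 over all genes, so these lists are too small to show a lack. Of the 548 genes nearest to a distal summit, 110 (20.1%, 16.8 to 23.7%) also had a thresholded summit in their own promoter window, against 13.4% of all autosomal protein-coding genes. The nearest 5′ end is a matter of position and does not show which gene a region acts on.

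Both replicates held nearly all of these summits, with less even rank among the weak ones. An entry overlapping by at least 1 bp was found for 652 members in the list of replicate 1 and for 651 in that of replicate 2, but those lists hold peaks together with background. Among the 4098 strongest of each replicate, 481 members (73.8%, 70.2 to 77.1%) had a match in both, 103 in replicate 1 only, 57 in replicate 2 only and 11 in neither. For promoter summits the share in both was 76.9%, and the difference of -3.17 points had an interval of -7.12 to 0.597. Of the 5 groups by signal, the strongest was matched in both for 100% of members and the weakest for 16.8%. Members matched in both held TGATAA in 63.4%, against 39.8% and 43.9% of those in replicate 1 or 2 only. The median signals of these groups also differed, at 126 against 75.3 and 75.3, and the part of signal in this gap was not tested. Across members the log2 ratio of replicate 1 to replicate 2 signal had a median of 0.21 and an SD of 0.49 (n = 651), and Spearman's rho was 0.732 across members, which share their libraries. Replicate agreement entered the authors' thresholding, so these shares are a description.

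**Figure D5:**
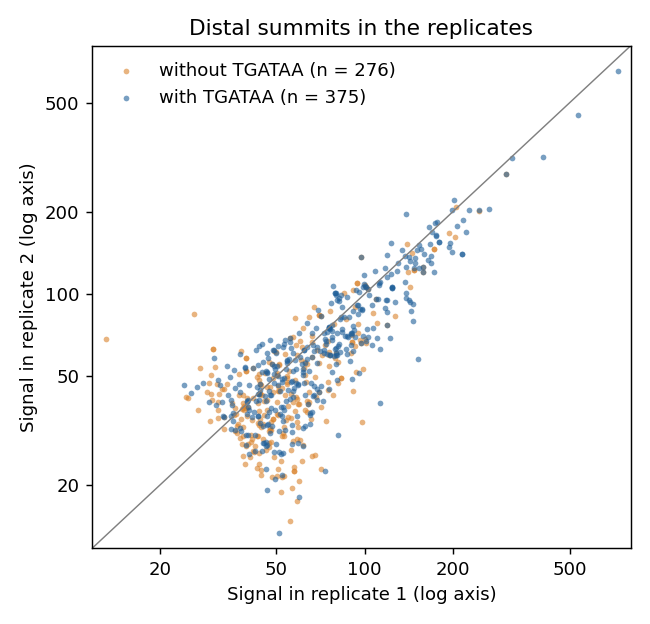
Signal of each distal summit's matching entry in replicate 1 (horizontal, log axis) and replicate 2 (vertical, log axis), for 651 members, coloured by TGATAA within 50 bp, with the line of equal signal. Strong summits lie near the line and the spread is widest below a signal of about 100.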

How the data were processed

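ELT-2-GFP ChIP-seq peak lists of 2 biological replicates were used. Per the deposited file listing they are lists of peaks with background for each replicate (25770 and 25986 entries on ce11) and for the pool (30000), and the optimal list after irreproducible discovery rate (IDR) thresholding. The signal, the −log10 q-value and the summit of each peak are the authors' deposited values. The signal's scale, the peak caller, the aligner and the IDR threshold are not given in the labels or headers used here, and the depth is unknown. No result rests on the −log10 q-value. The ce10 lists were not used.

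Genes came from Ensembl release 115 on WBcel235 (the assembly of ce11), and sequence from the RefSeq genome of that assembly. Python 3.11.15, numpy 2.4.6, scipy 1.17.1 and pandas 2.3.3 were used. Words were sought on both strands. Shares have exact binomial and densities exact Poisson intervals at 95%, which cover counting error only, and peaks are not replicates. The word test was tested on simulated data in which both windows of a pair had the same base composition. That simulation therefore did not cover the difference in G and C between summits and flanks. The members and gene lists were chosen with earlier results of these data known. The named summits are the 20 strongest on chromosomes II to V, those nearest to intestinal-list genes, the 5 farthest, the 3 tightest groups and the 10 called words of highest ratio. Others (F54F12.1, the pud pair, AGAGAG, the grouping of words by GATA and other words) were chosen after their values were seen. Alternatives were other promoter windows, annotations, window widths, flanks, thresholds and each replicate alone.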

Additional observations from a re-analysis of the deposited data

How the results depend on the processing

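Over 48 alternatives, 33 left the result on its side and 15 moved or weakened it. Those 15 include the control word AATAGT, which is a control rather than another setting. A turn of direction was possible only for the summit-minus-flank difference, where 0 were seen. Counts, shares, densities and medians could only stay or move. Shares, densities and medians stayed when they lay inside the main interval. Counts stayed within a set fold range, which was wide. The 876 summits with a promoter window of 500 and 100 bp, against 652, were taken as staying. So were the 436 called words within 100 bp, against 293. A promoter window of 2000 bp upstream and 500 bp downstream gave 415 summits, 29.3 per Mb and 8 intestinal genes, and one of 500 and 100 bp gave 37.8 per Mb. Keeping the stronger peaks of the list (those above its median signal) gave 302 summits, 15.7 per Mb, 9 intestinal genes and a TGATAA share of 73.8%. That share was 36.8% within 25 bp, 70.6% within 100 bp, 34.7% for TGATAAG and 65.0% for TGATAA or AGATAA. The summit-minus-flank difference was 47.4 points for TGATAA and 1.53 points for AATAGT (exact sign test, p = 0.368). Asking for replicate summits within 100 bp gave 67.9% matched in both. Counting 5′ ends of all genes except piRNA genes gave a median distance of 1361.5 bp, since more starts are counted.

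Using 1 replicate's strongest 4098 peaks in turn gave 625 to 664 summits, a TGATAA share of 56.5% in each, differences of 45.6 to 47 points, 32.4 to 34.4 per Mb, 270 to 286 called words and 14 to 16 intestinal genes. Leaving out members that overlap a stronger peak, gave 619 summits and 59.3%. The data were known when that alternative and those for the intestinal genes were chosen. No paired analysis was possible because both replicates belong to 1 group. Depth is unknown, so what it limits cannot be stated.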

Other observations

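Some distal summits lay in genes for RNAs that encode no protein. Of the 652, 29 (4.45%, 3.0 to 6.33%) were in genes annotated as ncRNA, which cover 1.36% of the territory, and 11 (1.69%, 0.845 to 3.0%) were in long intergenic noncoding RNA genes, which cover 0.789%. Pseudogenes cover 12.2% of the territory and held 7 (1.07%, 0.433 to 2.2%). Sequence soft-masked as repeats covers 41.3% of it and held 89 summits (13.7%, 11.1 to 16.5%). Input libraries were not analysed here, so how well reads can be placed in repeats or noncoding RNA genes, and its part in these shares, was not tested. The signal recognition particle RNA genes srpr-2.1 and srpr-1.1 each held a summit, with signals of 155 and 88.9. The central 51 bases of 6 members occurred more than once in the genome, up to 18 times with the member itself counted, and the highest signal among these members was 89.03.

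The pooled list held 5040 further entries in the same territory below the threshold, with signals of 16.1 to 67.6. TGATAA lay within 50 bp of 12.9% (12 to 13.9%) of their summits and in 8.33% of their flanks. The share was 21.4% (18.9 to 24.1%) in the 1008 strongest of them and 8.63% (6.97 to 10.5%) in the 1008 weakest, where the flanks held 8.33%. The 131 weakest thresholded members, at 35.9%, lay above the strongest of these.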
